A study of Homo sapiens with 17 samples.

Results

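Aminoacyl-tRNA synthetases are the enzymes that join each amino acid to its tRNA. They were followed here as 39 genes of the 19141 whose reads were counted, taken by symbol. The rule took symbols of 1 letter followed by ARS1 or ARS2, together with EPRS1, FARSA, FARSB, KARS1, QARS1 and the scaffold genes AIMP1 and AIMP2. It gave 20 genes of the cytosolic enzymes, 17 of the mitochondrial enzymes and 2 of the scaffold. The question was how the cytosolic and the mitochondrial enzymes moved over the time course. All libraries were made from YB5, a derivative of the colon cancer line SW48 that holds 1 insertion of a GFP gene behind a methylated, silent CMV promoter. Every library of either arm carries that insertion. Cells received 250 nM toyocamycin, an adenosine analog, or its vehicle DMSO, and polyA RNA was sequenced after 2, 10, 24, 48 or 72 h. The last time carries the label 72 h, which is used here, and is called 96 h in the published description of the time course.

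In the cytosol, every tRNA family is charged by a nuclear-encoded enzyme, and a second set of nuclear genes encodes the enzymes that are imported into mitochondria to serve the translation of the mitochondrial genome. GARS1 and KARS1 make both forms from 1 gene, EPRS1 joins the glutamyl and prolyl enzymes in 1 protein, and FARSA and FARSB are the subunits of the cytosolic phenylalanyl enzyme. Several cytosolic enzymes sit in a multisynthetase complex held together by AIMP1, AIMP2 and EEF1E1, and genes of many cytosolic enzymes are known targets of ATF4, the transcription factor of the amino acid response.

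DNA elements of 2 kinds frame the values that follow, and both were read from RefSeq promoter windows on GRCh38.p14, which run from 250 bases before a start to 50 after it. Windows were matched for 32 of the 39 members. The first set is shown because ATF4 and its C/EBP partners bind the letters TGATGNAA, where N is any base. These letters stood, on either strand, in the windows of 7 of 16 cytosolic genes, of 1 of 14 mitochondrial genes (YARS2) and of 4.46% of the 27305 genes with a window. The 7 cytosolic sites are printed in the direction of the gene, with the matching letters in capitals (TTGCATCA is TGATGCAA read on the other strand).
AARS1: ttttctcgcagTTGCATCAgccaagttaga
CARS1: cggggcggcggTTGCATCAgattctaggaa
GARS1: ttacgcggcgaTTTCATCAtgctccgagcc
IARS1: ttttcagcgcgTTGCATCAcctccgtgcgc
MARS1: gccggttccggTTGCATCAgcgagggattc
NARS1: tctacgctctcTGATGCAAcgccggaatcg
TARS1: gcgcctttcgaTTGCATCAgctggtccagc
They lie at chr16:70289675-70289704 (AARS1, minus strand), chr11:3057407-3057436 (CARS1, minus), chr7:30594834-30594863 (GARS1, plus), chr9:92293692-92293721 (IARS1, minus), chr12:57488053-57488082 (MARS1, plus), chr18:57621804-57621833 (NARS1, minus) and chr5:33440956-33440985 (TARS1, plus). In 6 of the 7 the letters are TGATGCAA, and GARS1 has TGATGAAA. A match is a description of the letters and not evidence of binding.

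The second sequence is shown because of HARS1 and HARS2, the cytosolic and mitochondrial histidyl enzymes. They are read away from each other from RefSeq starts only 85 bp apart. In the GENCODE annotation the genes overlap instead, with HARS1 (minus strand) reaching chr5:140691537 and HARS2 (plus strand) beginning at chr5:140691430. The 84 bases between the starts are printed on the plus strand, at chr5:140691371-140691454, with CCGGAA, the core letters of ETS family sites, in capitals on either strand.
HARS1-HARS2: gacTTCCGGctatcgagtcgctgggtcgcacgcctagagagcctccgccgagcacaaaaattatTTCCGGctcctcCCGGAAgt
CCGGAA occurred 3 times there. It was found in the windows of 12 of 16 cytosolic genes, 8 of 14 mitochondrial genes and 20.1% of all genes with a window. The other letters searched on both strands were CACGTG (1 of 16 cytosolic and 3 of 14 mitochondrial genes, 8.77% of all), CCAAT (7 of 16 and 9 of 14, 39.7% of all) and TATAAA (2 of 16 and 0 of 14, 14% of all). The motifs were chosen with the fold changes known, and the genes with a window include many without a protein.

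The 8 DMSO and 9 toyocamycin libraries held 8735465 to 22121364 counted reads. Each arm had 2 libraries at the first time, 3 at the last and 1 each at 24 and 48 h, and 10 h had 1 DMSO library and 2 toyocamycin libraries. Replicate 2 of 2 and 10 h formed batch 2 by the labels, and the other 13 libraries batch 1. Replicate 2 of toyocamycin at 10 h had the lowest total and stood apart from the other libraries, so 10 h results are given with and without it. The 100 most counted genes took 18.6% to 22.9% of the reads in DMSO and 2 h libraries and 31.4% to 37.4% in the toyocamycin libraries of 10 to 72 h. The 13 mitochondrially encoded genes, used below for an alternative scaling, took 1.42% and 3.47% on DMSO at 2 h. Their share was 1.77% and 2.65% on toyocamycin at 2 h and 3.30% and 6.55% at 10 h. At 72 h it was 0.917% to 1.49% on DMSO and 1.46% to 1.85% on toyocamycin. Of 10 colon epithelial markers, 9 had more than 3 counts in every group and CDX1 was at 0 in all groups except toyocamycin at 10 h. Their summed level was 1767 to 6859 CPM (read counts scaled to library size) on DMSO, 5909 to 6859 CPM of this at 72 h, and 560.0 to 588 CPM on toyocamycin at 72 h. At 10 and 24 h it was 4369 to 5153 and 4292 CPM on toyocamycin, above 1767 and 2050 CPM on DMSO. At 72 h 6 of 9 tested markers were lower and 2 higher (CDH17 and CDX2) at the threshold given below, beside 41.9% and 47.0% of all tested genes. The 10 markers of other cell types summed to 0.616 to 9.58 CPM on DMSO and 1.71 to 29.3 CPM on toyocamycin, highest in replicate 2 of 10 h, and their part in the results was not tested. In bulk RNA, fewer cells of a type and less RNA per cell cannot be told apart.

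Values are CPM after TMM scaling, and a log2 fold change is toyocamycin over DMSO, given with its standard error (SE). A gene was called at an FDR (Benjamini-Hochberg adjusted p over all tested genes) under 0.1. At 24 and 48 h, with 1 library per arm, called means a log2 fold change past 1, with no p-value. In the 8 DMSO libraries, cytosolic enzymes were the more abundant class per length of transcript. The median was 48.5 CPM per kb over 20 cytosolic genes and 13.2 CPM per kb over 15 mitochondrial genes. QARS1, the glutaminyl enzyme, was highest at 128 ± 11.2 CPM per kb (SD over 8 libraries), and IARS2, the mitochondrial isoleucyl enzyme, led its class at 68.9 ± 8.16 CPM per kb. WARS2 at 3.33 ± 0.685 and PARS2 at 3.57 ± 0.567 CPM per kb were the lowest of the 35 and lay within each other's spread.

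SARS2 and VARS2, the mitochondrial seryl and valyl enzymes, were left out of that median because their counts were near the floor of 3 reads. SARS2 had 0 to 10 reads per library and did not pass the filter, so 38 of the 39 members were tested. VARS2 had 0 to 10 reads per library and passed. Both lie over another annotated gene of the same strand, which shares 77.5% of the exon bases of SARS2 and 100% of those of VARS2, whereas the other 37 members share at most 6.16% and had at least 24 reads in every library. STAR's gene counting leaves out reads that overlap more than 1 gene, and its part in these counts was not tested.

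At 2 h the cytosolic genes stayed close to their DMSO levels. None of the 20 cytosolic genes was called in either direction with edgeR, against 0.518% of all tested genes called higher and 8.42% called lower, and their log2 fold changes ran from -0.31 to 0.21. The closest to a call was TARS1, the threonyl enzyme, at -0.31 ± 0.16 (SE, adjusted p = 0.39). With replicate number, which is also the labelled batch at 2 h, as a block, TARS1 passed, with an adjusted p of 0.033 at a log2 fold change of -0.32. Without the block, 0 cytosolic genes had an unadjusted p under 0.05 in edgeR, and DESeq2's Wald test called 0.

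Of the 16 tested mitochondrial genes, 2 fell at 2 h and none rose in edgeR (0 at an unadjusted p under 0.05, and 0 called higher by DESeq2), against 8.42% of all tested genes lower and 0.518% higher. PARS2, the prolyl enzyme of mitochondria (chr1:54756898-54764523, minus strand), had 6.80 and 7.56 CPM on DMSO and 0.980 and 1.87 CPM on toyocamycin. MARS2, the methionyl enzyme (chr2:197705369-197708395, plus strand), had 37.1 and 35.8 CPM on DMSO and 17.6 and 15.7 CPM on toyocamycin. In both genes the toyocamycin libraries lay below both DMSO libraries in either batch. The log2 fold change was -2.36 ± 0.27 (SE, adjusted p = 7.14e-05) for PARS2 and -1.13 ± 0.15 (SE, adjusted p = 2.33e-04) for MARS2. Under scaling on the 13 mitochondrially encoded genes MARS2 lost its call, although its estimate did not shrink (-1.26, adjusted p = 0.63). PARS2 and MARS2 are the members with the fewest exons in the canonical transcript, 1 in MARS2 and 2 in PARS2, against at least 4 in the others. Among all tested genes, 12.4% of 1209 with 1 or 2 exons and 8.07% of 13253 with more were called lower at 2 h. That split was made after the values of the pair were seen.

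**Figure D1:**
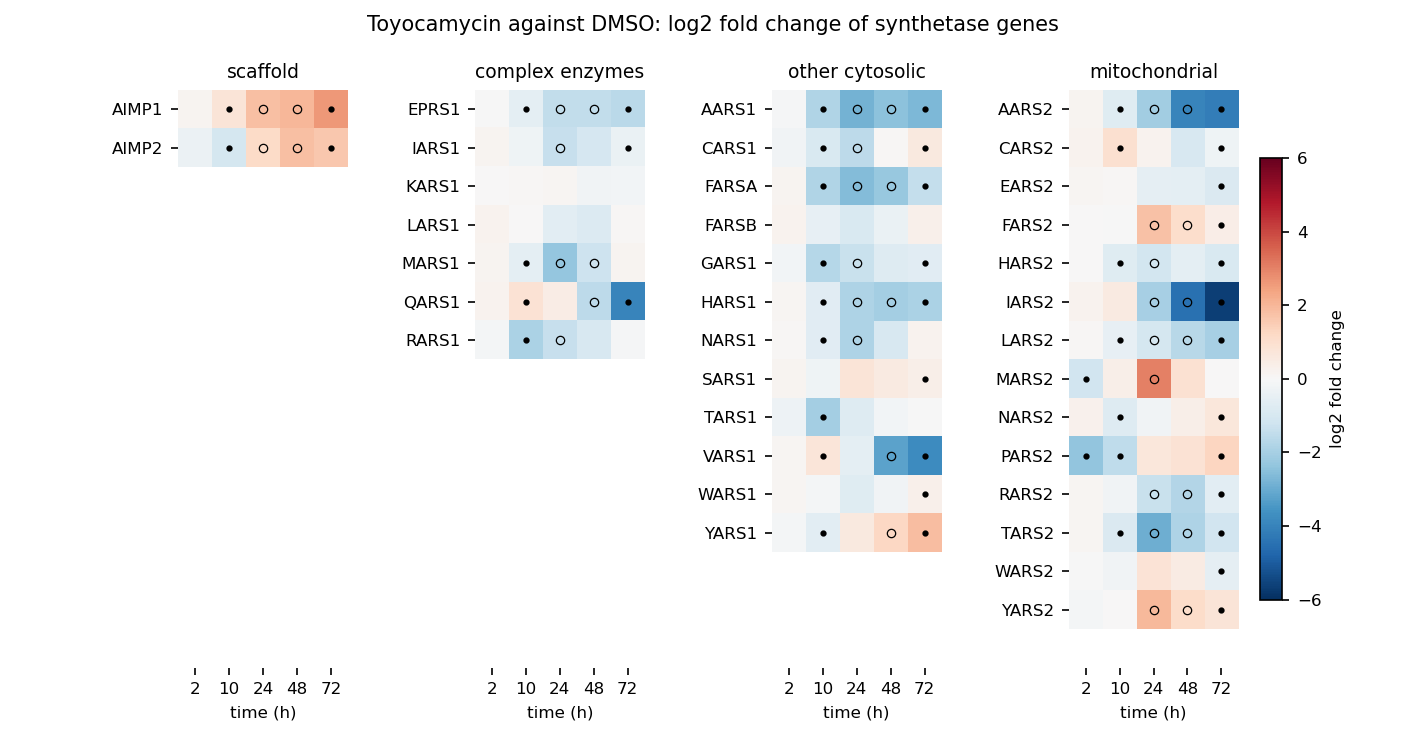
Log2 fold change of toyocamycin over DMSO for 35 synthetase and scaffold genes (rows) at 2, 10, 24, 48 and 72 h (columns), on a colour scale from -6 (blue) to 6 (red). Black dots mark an FDR under 0.1 at 2, 10 and 72 h and open circles a log2 fold change past 1 at 24 and 48 h, and the deepest blue is IARS2 at 72 h, at -5.67.

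At 10 h the fall was broad among the cytosolic enzymes. Of 20, 12 were downregulated and 2 upregulated, against 24.4% of all tested genes lower and 20.4% higher. TARS1, RARS1, AARS1, FARSA and GARS1 fell most. TARS1 went from 72.5 CPM in the DMSO library to 20.3 and 15.1 CPM in the toyocamycin libraries, a log2 fold change of -2.02 ± 0.23 (SE, adjusted p = 9.01e-06). RARS1, the arginyl enzyme, changed by -1.90 ± 0.26 (SE, adjusted p = 4.53e-05) and AARS1, the alanyl enzyme, by -1.81 ± 0.21 (SE, adjusted p = 1.05e-05). GARS1, which serves both compartments, had 114 CPM on DMSO and 36.4 and 33.7 CPM on toyocamycin. The DMSO side of each of these values is 1 library, assumed to vary like the other groups.

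QARS1 and VARS1, the valyl enzyme, were the cytosolic genes that rose at 10 h. QARS1 had 312 CPM on DMSO and 561 and 593 CPM on toyocamycin (0.89 ± 0.22 SE, adjusted p = 0.005), and VARS1 had 219 CPM against 404 and 314 CPM (0.71 ± 0.30 SE, adjusted p = 0.077). Both directions flipped under scaling on mitochondrially encoded genes, to -0.27 and -0.39, and neither passed with library size alone. Without replicate 1 of toyocamycin, which leaves batch 2 alone, VARS1 also lost its call (0.52, adjusted p = 0.13). The counts within batch 2 were 10 cytosolic genes lower and 1 higher. EPRS1 (-0.42, adjusted p = 0.16) was among the falls lost there. With library size alone the cytosolic split was 16 lower and 0 higher and on mitochondrially encoded genes 13 lower and 0 higher. Leaving out replicate 2, the library that stands apart, sets batch 1 on toyocamycin against batch 2 on DMSO. Drug and batch cannot then be told apart, and TARS1 stood at -1.83 and QARS1 at 0.85.

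Of the 16 mitochondrial genes, 6 were downregulated at 10 h (AARS2, HARS2, LARS2, NARS2, PARS2 and TARS2) and 1 was upregulated, against 24.4% of all tested genes lower and 20.4% higher. The upregulated gene was CARS2 at 0.94 ± 0.20 (SE, adjusted p = 0.002), although it went to -0.18 under scaling on mitochondrially encoded genes. Without replicate 1 of toyocamycin 4 were lower and 2 higher (CARS2 and IARS2, the latter at 0.68, adjusted p = 0.031), with HARS2 (-0.47, adjusted p = 0.11) and LARS2 (-0.36, adjusted p = 0.17) no longer called. Without replicate 2, when drug and batch cannot be told apart, TARS2 stood at -0.96 and CARS2 at 1.03. PARS2 was still low, with 11.01 CPM on DMSO and 3.998 and 3.65 CPM on toyocamycin. MARS2 differed between the toyocamycin libraries, at 67.3 and 29.5 CPM on either side of the DMSO library at 38.2 CPM. Its log2 fold change was 0.82 without replicate 2, across the batches, and -0.37 without replicate 1, within batch 2. The scaffold genes parted, AIMP1 at 0.79 ± 0.26 (SE, adjusted p = 0.025) and AIMP2 at -1.07 ± 0.21 (SE, adjusted p = 0.0011), and the rise of AIMP1 turned to -0.32 under scaling on mitochondrially encoded genes.

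At 24 h, 11 of 20 cytosolic genes lay below a log2 fold change of -1 and none above 1, where 27.8% of all tested genes lay below and 29.7% above. Among the lowest were AARS1 (-2.84), FARSA (-2.59) and MARS1 (-2.34). Of 16 mitochondrial genes, 6 lay below -1, with TARS2 lowest at -2.95, and 4 lay above 1. Among the 4 is VARS2, from 6 reads against 2. MARS2, low at 2 h, was now the highest member, with 292 CPM on toyocamycin against 35.4 CPM on DMSO (log2 fold change 3.04). YARS2 and FARS2 stood at 1.92 and 1.77.

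At 48 h, 8 cytosolic genes lay below -1 and 1, YARS1, above 1, beside 29.9% and 38.1% of all tested genes. QARS1 and VARS1 had stood at 0.45 and -0.56 at 24 h. Both now lay below -1, QARS1 with 88.1 CPM against 259 CPM and VARS1 with 41.8 CPM against 386 CPM. Of the mitochondrial genes, 6 lay below and 3 above, the 3 being FARS2, YARS2 and VARS2 (10 reads against 0). IARS2 stood at 10.8 CPM against 241 CPM and AARS2 at 4.65 CPM against 73.4 CPM. These 24 and 48 h values have no replicate check. Under scaling on mitochondrially encoded genes, which moved the median of all genes to -2.16 at 24 h and -1.64 at 48 h, 20 and 19 cytosolic genes lay below -1, and with library size alone 16 lower and 0 higher at 24 h and 14 lower and 0 higher at 48 h.

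**Figure D2:**
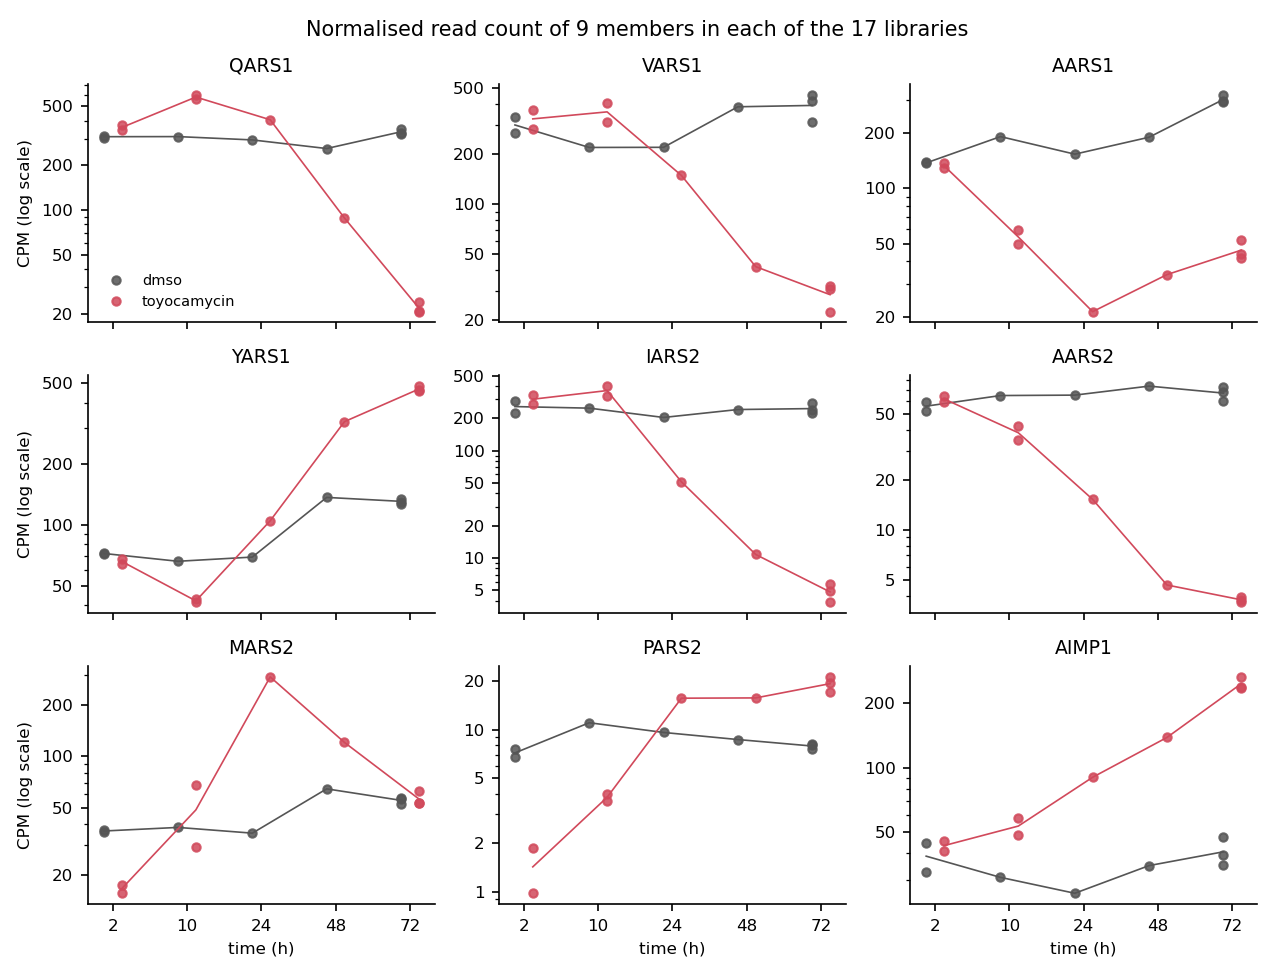
Normalised read count (CPM, logarithmic axis) of 9 members in each of the 17 libraries, with DMSO in grey and toyocamycin in red at 2, 10, 24, 48 and 72 h (evenly spaced). Points are libraries and lines join the group means, and IARS2 at 72 h reads 4.93, 3.84 and 5.69 CPM on toyocamycin against 223, 239 and 278 CPM on DMSO.

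By 72 h the cytosolic enzymes had split, with 9 of 20 downregulated, 4 upregulated and 7 not called, against 41.9% of all tested genes lower and 47.0% higher. This split depended on the scaling. It was 8 lower and 9 higher under DESeq2's size factors, 17 lower and 1 higher with library size alone and 15 lower and 0 higher on mitochondrially encoded genes, with medians of all genes of 0.50, -0.42 and -0.89. The deepest falls were in QARS1 and VARS1, the pair that had risen at 10 h. QARS1 (chr3:49095932-49105130, minus strand) had 326, 353 and 331 CPM on DMSO and 20.8, 24.1 and 20.6 CPM on toyocamycin, a log2 fold change of -3.95 ± 0.13 (SE, adjusted p = 1.22e-12). VARS1 (chr6:31777518-31795752, minus strand) had 452, 416 and 311 CPM and 22.4, 30.8 and 31.8 CPM (-3.79 ± 0.20 SE, adjusted p = 6.85e-11). AARS1 had 298, 319 and 292 CPM and 41.99, 44.2 and 52.04 CPM (-2.72 ± 0.13 SE, adjusted p = 2.44e-11). In all 3 genes the groups were far apart and did not overlap.

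The other falls were smaller, among them -1.92 in HARS1, EPRS1 (-1.60), FARSA (-1.43), GARS1 (-0.69) and IARS1 (-0.40). GARS1 had 178, 187 and 223 CPM on DMSO and 124, 110.4 and 131 CPM on toyocamycin. The fall of IARS1, the cytosolic isoleucyl enzyme, lost its call under DESeq2's size factors (-0.08, adjusted p = 0.6). KARS1, the lysyl enzyme of both compartments, was not called, with 146, 169 and 188 CPM on DMSO and 152, 136 and 158 CPM on toyocamycin (-0.18 ± 0.14 SE, adjusted p = 0.24). It was called lower under library size alone (-0.78) and under scaling on mitochondrially encoded genes (-1.22). TARS1 and RARS1, among the deepest falls at 10 h, were at -0.03 and -0.08, neither of them called. TARS1 was called lower with library size alone (-0.63) and on mitochondrially encoded genes (-1.07) and higher under DESeq2's size factors (0.30).

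YARS1, the tyrosyl enzyme (chr1:32775237-32818031, minus strand), rose most, with 129.7, 127 and 135 CPM on DMSO and 485, 464 and 457 CPM on toyocamycin (1.84 ± 0.11 SE, adjusted p = 3.98e-10). CARS1, the cysteinyl enzyme, had 38.6, 43.6 and 40.01 CPM and 59.1, 60.8 and 65.6 CPM (0.60 ± 0.13 SE, adjusted p = 4.31e-04). SARS1, the seryl enzyme, had 125, 141 and 141 CPM and 178, 176 and 162 CPM (0.34 ± 0.14 SE, adjusted p = 0.035), and WARS1 changed by 0.31 ± 0.12 (SE, adjusted p = 0.02). The groups did not overlap in YARS1, CARS1 and SARS1. Under scaling on mitochondrially encoded genes YARS1 kept its direction (0.77, adjusted p = 0.11), whereas CARS1, SARS1 and WARS1 turned to -0.47, -0.73 and -0.76. SARS1 also lost its call without replicate 1 of DMSO (0.28, adjusted p = 0.12).

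Of the 16 tested mitochondrial enzymes, 10 were downregulated at 72 h and 5 upregulated, against 41.9% of all tested genes lower and 47.0% higher. The split was 7 lower and 6 higher under DESeq2's size factors, 11 lower and 1 higher with library size alone and 11 lower and 0 higher on mitochondrially encoded genes. IARS2 (chr1:220094132-220148041, plus strand) held the largest change of any member, from 246 ± 28.2 CPM (SD, n = 3) to 4.82 ± 0.930 CPM (SD, n = 3), and changed by -5.67 ± 0.19 (SE, adjusted p = 1.31e-12) on the log2 scale. AARS2, the alanyl enzyme (chr6:44298731-44313347, minus strand), had 73, 67.2 and 59.7 CPM on DMSO and 3.65, 3.94 and 3.77 CPM on toyocamycin (-4.14 ± 0.16 SE, adjusted p = 3.19e-12). LARS2, the leucyl enzyme, had 69.6, 70.9 and 69.9 CPM and 18.04, 15.3 and 18.9 CPM (-2.01 ± 0.13 SE, adjusted p = 7.96e-10). In these 3 genes every toyocamycin library lay below every DMSO library. TARS2 (-1.13), HARS2 (-0.91), EARS2 (-0.89), RARS2 (-0.64), WARS2 (-0.54) and CARS2 (-0.24) fell less. Under DESeq2's size factors RARS2 (-0.31, adjusted p = 0.11) and WARS2 (-0.22, adjusted p = 0.32) lost their calls. The fall of CARS2 turned to 0.08 under DESeq2's size factors and missed the threshold without replicate 1 or 3 of either arm (adjusted p = 0.11 and 0.1 without those of DMSO, 0.12 and 0.1 without those of toyocamycin).

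PARS2, which had fallen at 2 h, rose most at 72 h among the mitochondrial genes above the floor, with 8.16, 8.01 and 7.55 CPM on DMSO and 21.1, 19.4 and 17 CPM on toyocamycin (1.28 ± 0.19 SE, adjusted p = 1.05e-05). YARS2, the tyrosyl enzyme, had 23.6, 25.1 and 30.6 CPM and 42.2, 45.3 and 49.8 CPM (0.79 ± 0.15 SE, adjusted p = 1.86e-04), and NARS2 and FARS2 changed by 0.69 and 0.40. Under scaling on mitochondrially encoded genes PARS2 lost its call (0.19, adjusted p = 0.70), and YARS2, NARS2 and FARS2 turned to -0.25, -0.38 and -0.68. FARS2 also lost its call without replicate 1 of toyocamycin (0.31, adjusted p = 0.12). The remaining call, VARS2 (adjusted p = 0.06), rested on 0, 3 and 1 reads on DMSO and 2, 6 and 1 reads on toyocamycin, which overlap, and was lost without replicate 1 or 3 of DMSO (adjusted p = 0.15 and 0.13) or replicate 2 of toyocamycin (0.42). MARS2 had returned to 56.2 ± 5.42 CPM (SD, n = 3) beside 55.1 ± 2.16 CPM (SD, n = 3) on DMSO (0.03 ± 0.12 SE, adjusted p = 0.82).

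Set side by side, the class medians changed places over the time course. The median log2 fold change was 0.11 in cytosolic and 0.12 in mitochondrial genes at 2 h. It was -0.63 against -0.13 at 10 h, -1.35 against -0.35 at 24 h and -0.94 against -0.58 at 48 h. By 72 h it was -0.13 in cytosolic and -0.59 in mitochondrial genes. The median of all tested genes was 0.02, 0.42, 0.00, 0.16 and 0.18 at these times. From 10 to 48 h the cytosolic median was therefore the lower, by 0.50, 1.0 and 0.36, and at 72 h the higher, by 0.46. Each of the 3 toyocamycin libraries of 72 h, set against the mean of DMSO, gave this sign (0.38, 0.38 and 0.56), and both libraries of 10 h gave the opposite one (-0.54 and -0.30). At 2 h the difference was -0.01. All settings tried kept the sign from 10 to 72 h. The 24 h difference was -0.84 without VARS2 and -1.16 without a filter on low counts, and the 10 h difference was -0.30 without replicate 1 of toyocamycin. The quartiles at 72 h did not follow the medians. The lower and upper quartiles were -1.62 and 0.22 in cytosolic genes and -1.09 and 0.47 in mitochondrial genes. Both were thus lower in the cytosolic class. The classes overlapped widely at every time, and no test was made over members.

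**Figure D3:**
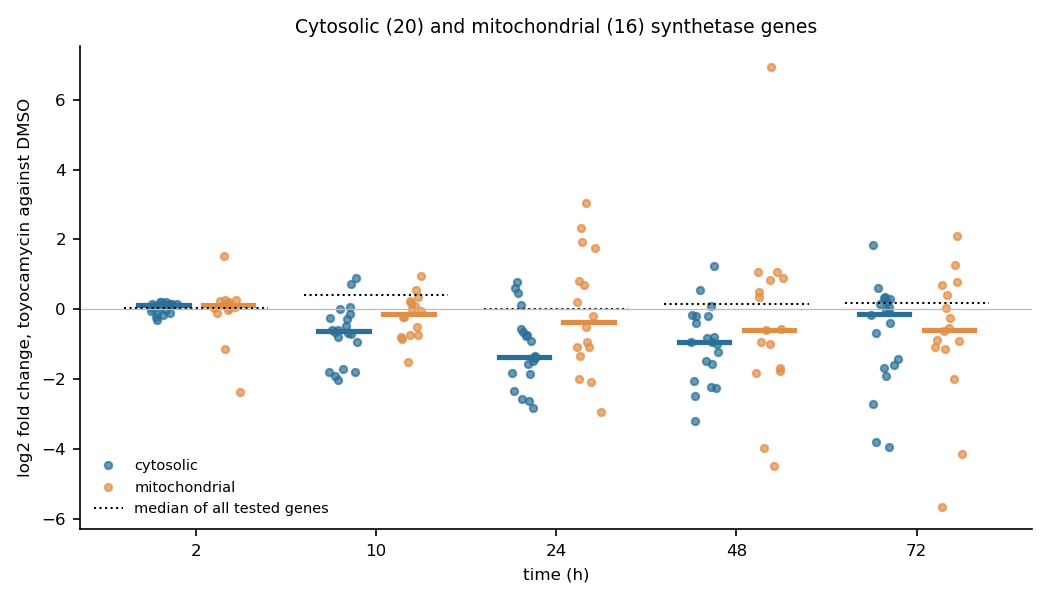
Log2 fold change of toyocamycin over DMSO (vertical axis) for 20 cytosolic (blue) and 16 mitochondrial (orange) genes at each time, 1 point per gene, with class medians as bars and the median of all tested genes as a dotted line. The cytosolic bar is the lower at 24 h (-1.35 against -0.35) and the higher at 72 h (-0.13 against -0.59).

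In all, 15 pairs of a cytosolic and a mitochondrial gene that serve the same amino acid were compared, with EPRS1 counted against EARS2 and PARS2 and FARS2 against FARSA and FARSB. At 72 h both genes were downregulated in 4 pairs (alanyl, histidyl, isoleucyl and glutamyl), both upregulated in 1 (tyrosyl), and called in opposite directions in 4. Of all tested genes 41.9% were lower and 47.0% higher, and how often unrelated genes would pair in these ways was not tested. In 6 pairs at least 1 gene was not called. The isoleucyl pair was the most unequal, at -0.40 for IARS1 and -5.67 for IARS2. The prolyl pair was opposite, with EPRS1 at -1.60 and PARS2 at 1.28, as were the FARSA, CARS1 and WARS1 pairs. All 4 depended on the scaling. In the prolyl pair, PARS2 lost its call in edgeR on mitochondrially encoded genes (0.19, adjusted p = 0.70). Under DESeq2's size factors CARS2 turned to 0.08 and WARS2 was not called, and on mitochondrially encoded genes FARS2, CARS1 and WARS1 turned negative, FARS2 and WARS1 also with library size alone. At 10 h both genes were lower in 5 pairs and opposite in 1, and at 2 h no pair had both genes called.

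HARS1 and HARS2, which share the 84 bases printed above between their RefSeq starts, both fell. HARS1 had 108, 111 and 109 CPM on DMSO and 27.6, 27.7 and 31.3 CPM on toyocamycin at 72 h, and HARS2 had 50.5, 58.2 and 61.5 CPM and 32.7, 28.2 and 29.4 CPM. At 10 h their log2 fold changes were -0.70 and -0.74. HARS1 then stood at -1.84 (24 h) and -2.06 (48 h) and HARS2 at -1.08 and -0.60. The 72 h values were -1.92 ± 0.12 (SE, adjusted p = 8.18e-10) for HARS1 and -0.91 ± 0.14 (SE, adjusted p = 1.25e-05) for HARS2. The difference between the 2 genes was not tested. Exons of the canonical transcripts share 220 bases of HARS1 and 235 bases of HARS2 with exons of the neighbouring counted genes, each other included, and whether reads were counted by strand is not stated in the sources used here. In all, 14 members overlap another counted gene, and in 8 of them exon bases of the canonical transcript are shared, at most 532 in AIMP2 (with EIF2AK1 on the other strand). For the 8, reads over the shared bases could be missing from the count, because STAR's gene counting leaves out reads that overlap more than 1 gene. The size of this loss was not tested.

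**Figure D4:**
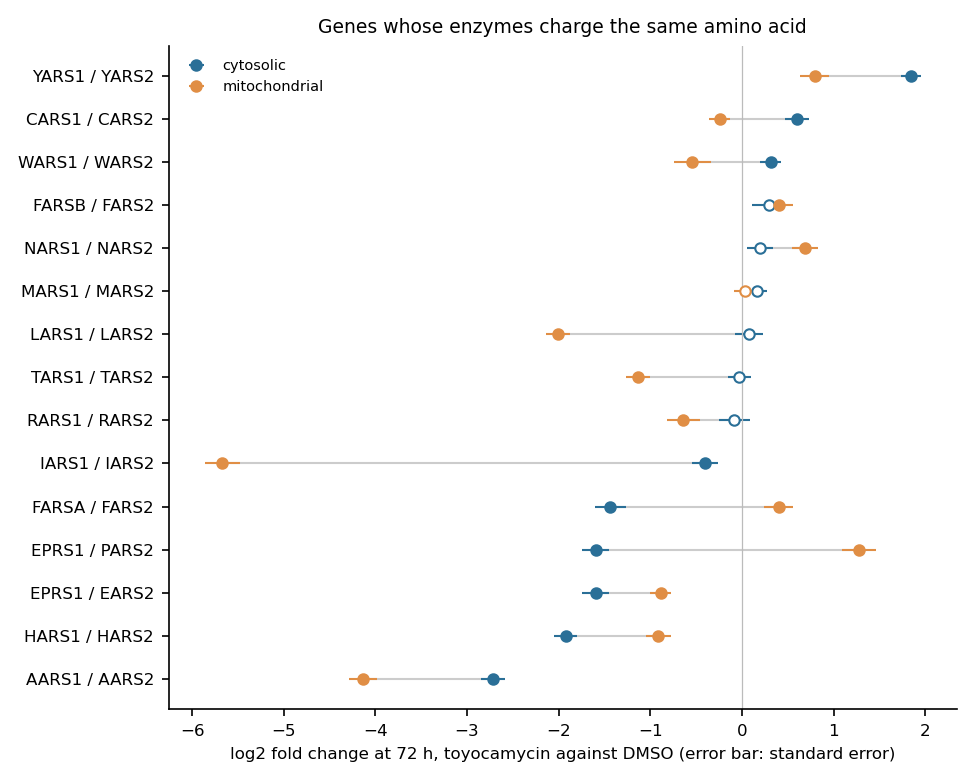
Log2 fold change at 72 h (horizontal axis, with standard error) of the cytosolic (blue) and mitochondrial (orange) gene in each of 15 pairs that serve the same amino acid, ordered by the cytosolic value. Filled points passed an FDR of 0.1 and open points did not, and the widest gap is between IARS1 at -0.40 and IARS2 at -5.67.

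The scaffold genes of the multisynthetase complex rose at 72 h, as did 47.0% of all tested genes. None of the enzymes of the complex rose in the fit of 14 libraries with TMM scaling. AIMP1 had 35.2, 39.2 and 47.6 CPM on DMSO and 264, 237 and 235 CPM on toyocamycin at 72 h (2.59 ± 0.15 SE, adjusted p = 3.32e-10), and AIMP2 had 25.6, 27.7 and 25.5 CPM and 81.6, 76.6 and 86.99 CPM (1.64 ± 0.12 SE, adjusted p = 4.64e-09). Neither pair of groups overlapped, and both genes already lay above a log2 fold change of 1 at 24 h (1.79 and 1.15). AIMP2 kept its direction under scaling on mitochondrially encoded genes but not its call (0.57, adjusted p = 0.23). EEF1E1, the third scaffold gene, rose by 0.83 ± 0.30 (SE, adjusted p = 0.017). Of the 8 enzymes of the complex, which include EPRS1, KARS1, MARS1 and QARS1, 4 fell at 72 h and none rose in the fit of 14 libraries. LARS1 and MARS1 were called higher under DESeq2's size factors. The replicate block, also with TMM scaling, called 7 cytosolic genes higher, against 4 in the fit of 14 libraries. Of the 12 other cytosolic genes, 5 fell and 4 rose in that fit. Both shares of falls are near the 41.9% of all tested genes, and the difference between the sets was not tested.

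In culture without drug, 9 of 20 cytosolic genes rose between 2 and 72 h on DMSO and none was lower in edgeR (0 at an unadjusted p under 0.05, and 0 called lower by DESeq2), against 10.2% of all tested genes higher and 11.4% lower. This was not a steady rise, since 18 of the 20 lay below their 2 h mean in the 1 DMSO library of 24 h and 17 lay above it in that of 48 h. Of the mitochondrial genes, 1 of 16, MARS2, was higher (0.60 ± 0.14 SE, adjusted p = 0.0083) and none lower (0 at an unadjusted p under 0.05 and 0 by DESeq2, 1 with library size alone). AARS1 had 136 and 138 CPM at 2 h and 298, 319 and 292 CPM at 72 h (1.15 ± 0.14 SE, adjusted p = 5.84e-05). CARS1 (0.92), YARS1 (0.86), GARS1 (0.78), FARSA (0.56), TARS1 (0.55), EPRS1 (0.54), WARS1 (0.48) and MARS1 (0.47) made up the rest. The cytosolic count was 3 under scaling on mitochondrially encoded genes, which put the median of all genes at 0.62, 5 with library size alone, 13 with batch as a term over all libraries, and 6, with 1 gene lower, without replicate 1 of 2 h, when batch and time cannot be told apart. The fold changes at 72 h are against the DMSO levels of 72 h: AARS1 on toyocamycin had 46.1 ± 5.29 CPM (SD, n = 3), below the DMSO level of 2 h as well, whereas GARS1 had 122 ± 10.4 CPM (SD, n = 3) beside 115 ± 8.97 CPM (SD, n = 2) on DMSO at 2 h.

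Of the 7 genes with the printed TGATGNAA sites, 5 were higher at 72 h than at 2 h in DMSO, with a median log2 fold change of 0.55, and of the 9 cytosolic genes whose windows lack the letters 3 were higher, with a median of 0.20. On toyocamycin at 10 h, 6 of the 7 were lower (median -0.93), and of the 9 others 4 were lower and 1 higher (median -0.47). At 24 h 6 of the 7 and 4 of the 9 lay below -1, with medians of -1.57 and -0.92. By 48 h it was 2 of the 7 and 4 of the 9, with medians of -0.94 and -0.95. At 72 h, 3 of the 7 were lower and 1 higher (median -0.03), and of the 9, 4 were lower and 2 higher (median -0.18). Of all tested genes, 10.2% were higher in DMSO, and at 10 h 24.4% were lower and 20.4% higher. At 24 and 48 h 27.8% and 29.9% lay below -1, and at 72 h 41.9% were lower and 47.0% higher. The 72 h falls of both sets are near that share. The sets are small and were formed with the values known, so no test was made.

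**Figure D5:**
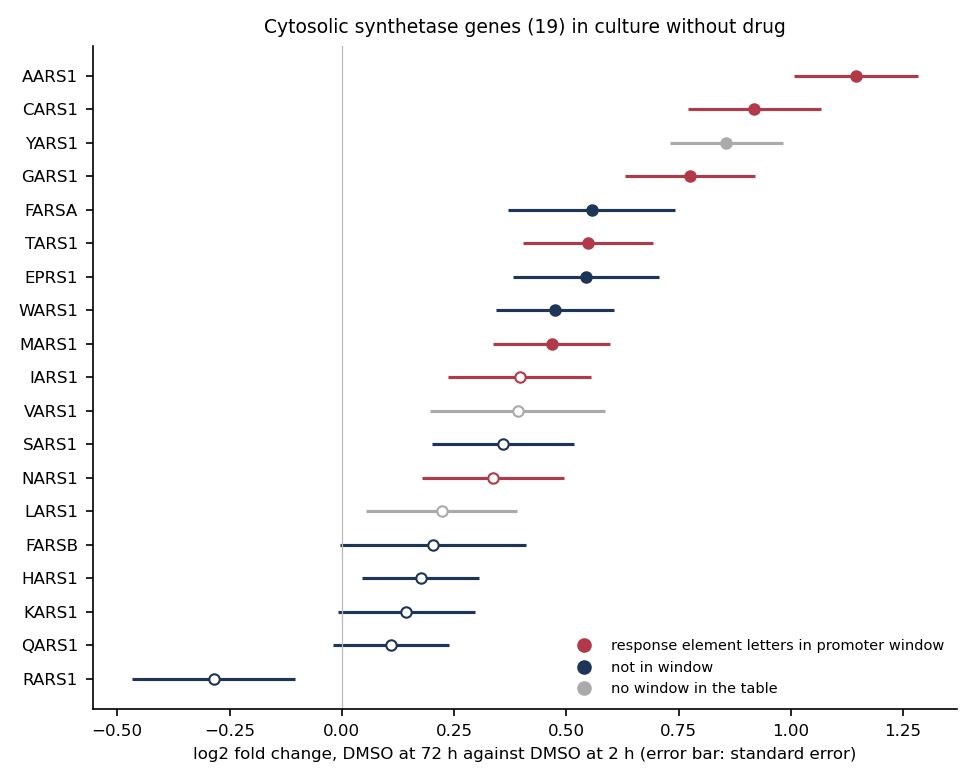
Log2 fold change of DMSO at 72 h over DMSO at 2 h (horizontal axis, with standard error) for 19 cytosolic genes, ordered by value. Red marks genes with the response element letters in the promoter window, blue genes without them and grey genes with no window, and filled points passed an FDR of 0.1, with AARS1 highest at 1.15.

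The genes around the synthetases, taken as whole lists, moved in both directions at 72 h. Of 22 other genes of tRNA charging and tRNA processing, 9 were upregulated and 12 downregulated, which is near the 47.0% higher and 41.9% lower of all tested genes, with the largest changes in ELAC2, which trims tRNA ends (-3.73 ± 0.14 SE, adjusted p = 2.50e-12), TARS3, a second cytosolic threonyl enzyme (-3.41 ± 0.24 SE, adjusted p = 1.92e-09), YRDC, which modifies tRNAs that read codons starting with A (3.39 ± 0.13 SE, adjusted p = 3.36e-12), and DTD2, which removes wrongly attached amino acids (-3.19 ± 0.36 SE, adjusted p = 6.30e-07). At 10 h 7 of the 22 were higher and 9 lower, beside 20.4% and 24.4% of all genes. At 2 h edgeR and DESeq2 called 0 of the 22, and 2 had an unadjusted p under 0.05 in edgeR. On mitochondrially encoded genes the 72 h split was 1 higher and 14 lower, and with library size alone 4 and 13. Of 33 amino acid response genes, 17 were upregulated and 13 downregulated at 72 h (10 and 15 on mitochondrially encoded genes, 14 and 16 with library size alone, 18 and 8 under DESeq2's size factors), again near the shares of all genes. ATF4, named after its values were seen, rose by 5.46 ± 0.18 (SE, adjusted p = 9.86e-13). ATF3, another transcription factor of the response, rose by 9.85 on the log2 scale, and SLC1A5, a glutamine transporter, had a log2 fold change of -6.21. VLDLR, a lipoprotein receptor, was called higher with 0, 0 and 0 reads on DMSO and 11, 15 and 15 reads on toyocamycin, and STC2, a secreted glycoprotein, with 1, 2 and 1 reads against 66, 70 and 56, so no fold is given for either. ATF4 was also higher at 10 h (2.48 ± 0.44 SE, adjusted p = 4.40e-04), when 12 of 20 cytosolic synthetase genes were lower. At 2 h 6 of the 33 were lower in edgeR (8.42% of all genes) and 0 higher, as in DESeq2 with 7 lower, and 11 had an unadjusted p under 0.05 in edgeR.

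The effect at 72 h differed from that at 2 h, tested directly, in 11 of 20 cytosolic genes (2 more positive, 9 more negative), 12 of 16 mitochondrial genes (3 and 9) and both scaffold genes. Among all tested genes 38.0% were more positive and 38.1% more negative. Without replicate 2 of toyocamycin at 2 h, 5 mitochondrial genes were more positive. The largest differences were -5.90 ± 0.27 (SE, adjusted p = 1.05e-10) in IARS2 and 3.64 ± 0.33 (SE, adjusted p = 9.23e-08) in PARS2.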

How the data were processed

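PolyA RNA of the 17 libraries was sequenced in paired-end reads. Per the labels and the paper, the authors aligned the reads with STAR 2.7.5a and deposited raw read counts per gene, which were used as deposited. Strand and the filter on multiply mapped reads are not given in the sources used here. A second deposited table holds the authors' fold changes, p-values and gene widths from edgeR and was not used. Among the count columns 1 matched no sample and was left out, so 10 h on DMSO has 1 library.

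Symbols and positions came from GENCODE v44 on GRCh38 (19080 of 19141 identifiers matched), and exon numbers are of the canonical transcript. Libraries were fitted with edgeR 4.0.16 in R 4.3.3 (filterByExpr, TMM, the quasi-likelihood test in the legacy form of the authors' version, Benjamini-Hochberg adjustment over all tested genes, called under 0.1). The 14 libraries of 2, 24, 48 and 72 h formed 1 fit of 14491 genes with 6 residual degrees of freedom, and all 17 formed the fit of 16521 genes used for 10 h, with 7. Alternatives were DESeq2 1.42.0 (size factors and Wald test), library size alone, scaling on 13 mitochondrially encoded genes, edgeR 4's quasi-likelihood test, no filter, batch as a term, a threshold of 0.05, a replicate block, leaving out each library and, added after the values were seen, leaving out VARS2. The edgeR test at 72 h was tested on simulated data first. That simulation changed a small set of genes, equally up and down, so it could not test how the 72 h results depend on the scaling. Promoter windows came from RefSeq. Counts of 0 to 3 were treated as the floor, which covers counting error only.

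At 2 h the replicate number equals the labelled batch, and the deviations of same-numbered libraries correlated at r = 0.34, so the block is a pairing there. At 72 h r was -0.13, 0.06 and -0.12 for replicates 1, 2 and 3, and it is not. The labels call the libraries biological triplicates. Values in every library are given for the 3 most positive and 3 most negative called genes of each class at 2 and 72 h, for HARS1, HARS2, GARS1, KARS1, AIMP1 and AIMP2, and for others where a comparison turns on them. The members and lists were chosen with earlier results of these data known. Some members enter the counts but are not reported by name here.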

Additional observations from a re-analysis of the deposited data

Results flagged for a closer look

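The effect of toyocamycin differed between 72 h and 2 h in the 23 members named here by edgeR's test of the difference itself (adjusted p under 0.1), and each is given as the log2 fold change at 72 h minus that at 2 h. It was more negative at 72 h in 16 members: IARS2 (-5.90), AARS2 (-4.28), QARS1 (-4.15), VARS1 (-3.91), AARS1 (-2.67), LARS2 (-2.07), HARS1 (-2.03), FARSA (-1.59), EPRS1 (-1.58), TARS2 (-1.26), EARS2 (-1.003), HARS2 (-0.96), RARS2 (-0.77), IARS1 (-0.55), GARS1 (-0.52) and CARS2 (-0.45). It was more positive in 7: CARS1 (0.83), YARS2 (0.90), MARS2 (1.15), YARS1 (1.97), AIMP2 (2.00), AIMP1 (2.43) and PARS2 (3.64). In MARS2 and PARS2 the difference holds a fall at 2 h, whereas none of the other 21 was called at 2 h. No group had 4 or more libraries, so no library was examined as an outlier within its group.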

How the results depend on the processing

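Of 271 counts and class differences recomputed under another setting with all libraries, 225 stayed within 1.5 times the reported count or the spread between libraries, as did 112 of 120 with 1 library left out. The cytosolic minus mitochondrial median kept its sign from 10 to 72 h.

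At 2 h, 1 cytosolic gene was lower with the replicate block and 1 mitochondrial gene under scaling on mitochondrially encoded genes, and the class difference ranged from -0.13 to 0.0045 with 1 library left out. At 10 h, cytosolic genes higher were 0 with library size alone, 0 under mitochondrial scaling, 1 at an adjusted p under 0.05 and 1 to 2 with 1 library left out. Mitochondrial genes higher were 2 under DESeq2's size factors, 0 under mitochondrial scaling, 4 by DESeq2's Wald test, 2 by edgeR 4, 2 with batch as a term and 2 without either toyocamycin library, and the class difference was -0.44 to -0.30 without 1 of these libraries. At 24 h, under mitochondrial scaling, 20 cytosolic and 12 mitochondrial genes were lower and 0 mitochondrial genes higher (2 with library size alone), and the class difference was -1.16 with no filter and -0.84 without VARS2. At 48 h, library size alone gave 0 cytosolic genes higher and 14 lower and 1 mitochondrial gene higher, mitochondrial scaling gave 0, 19 and 1 with 11 mitochondrial genes lower, and DESeq2's size factors gave 5 mitochondrial genes higher.

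At 72 h, cytosolic genes higher were 9 under DESeq2's size factors and by its Wald test, 1 with library size alone, 0 under mitochondrial scaling and 7 with the replicate block. Lower were 17 with library size alone and 15 under mitochondrial scaling, and mitochondrial genes higher were 1 and 0. For the difference between 72 and 2 h, cytosolic genes more positive were 5 (size factors), 6 (Wald), 1 (library size) and 0 (mitochondrial scaling), and mitochondrial genes 5, 5, 2 and 1, or 3 to 5 with 1 library left out. In DMSO, cytosolic genes higher were 5 with library size alone, 3 under mitochondrial scaling and 6 to 10 with 1 library left out, and lower 0 to 1. Mitochondrial genes higher were 0 under mitochondrial scaling, 3 by Wald, 2 with batch as a term and 1 to 2 with 1 library left out, and 1 was lower with library size alone.

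Directions turned under mitochondrial scaling at 10 h in CARS2 (-0.18), AIMP1 (-0.32), QARS1 (-0.27) and VARS1 (-0.39) and at 72 h in SARS1 (-0.73), CARS1 (-0.47), NARS2 (-0.38), YARS2 (-0.25), WARS1 (-0.76) and FARS2 (-0.68). They turned at 72 h with library size alone in SARS1 (-0.26), WARS1 (-0.29) and FARS2 (-0.20), and with both uses of DESeq2 in CARS2 (0.079) and TARS1 (0.30). The median of all genes at 72 h moved from 0.18 to -0.89, -0.42 and 0.50 under these scalings. The replicate block at 72 h, whose numbers do not pair the libraries, moved CARS2 to -0.14 (adjusted p = 0.34). Among PARS2, MARS2 and TARS1, the block at 2 h changed the call of TARS1 alone, and other members were not followed by name under it. At 24 and 48 h there is 1 library per arm, and at 10 h 1 on DMSO, so spread was borrowed or not known.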
